A study of Rattus norvegicus with 20 samples.

Results

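ATP-sensitive potassium (KATP) channels are the plasma membrane targets of diazoxide (DZ), and the data described here are the hippocampal mRNA levels of their 4 subunit genes. The members were chosen by gene symbol: Kcnj11 and Kcnj8, which encode the pore subunits Kir6.2 and Kir6.1, and Abcc8 and Abcc9, which encode the sulfonylurea receptors SUR1 and SUR2. All 4 were found, each in 1 row, among the 17168 genes of both tables, and all 4 averaged 10 estimated counts or more.

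RNAseq was run on the hippocampus of 20 female rats killed at 4 months of age, 1 library per rat. The genotype table holds 5 wild-type rats (WTNT) and 5 TgF344-AD rats (TGNT), all on rodent chow and untreated, and it asks what the transgenes alone change early in life. TgF344-AD rats carry human Alzheimer transgenes, mutant amyloid precursor protein among them, under the prion promoter, so expression is not limited to the hippocampus or to a single cell type. The treatment table holds 4 other untreated TGNT rats and 6 TgF344-AD rats fed chow with DZ and dibenzoylmethane (DIB) from 52 days of age (TGTR). The doses were 10 mg/kg DZ and 200 mg/kg DIB per day. This table asks what the drug combination changes. The labels give no wild-type treated group and no group with DZ or DIB alone, so the effects of the drugs cannot be told apart from each other.

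KATP channels are octamers of Kir6 pore subunits surrounded by SUR subunits. ATP closes the pore and magnesium-bound ADP, acting on the SUR, opens it, so the channel ties membrane potential to the energy state of the cell. Kir6.2 with SUR1 is the form known from pancreatic beta cells and from many neurons, whereas Kir6.1 with SUR2B is the form of vascular smooth muscle and pericytes. DZ opens channels that contain SUR1 or SUR2B and is also used as an opener of the mitochondrial KATP channel.

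The genes lie in pairs in the rat genome: in the order of the GRCr8 RefSeq annotation, Kcnj11 is next to Abcc8 on chromosome 1, and Kcnj8 is next to Abcc9 on chromosome 4. The RefSeq promoter table held Kcnj8 and Abcc9. The 250 bases before each start site are printed because these neighbours were the members whose values were higher in every TGTR rat than in every TGNT rat. For Kcnj8 this was by less than the value of 1 read. Of the 12029 genes that averaged 10 counts or more, 97 (0.806%) were higher in this way. Capitals mark the GC box, searched on both strands as GGGCGG, which each stretch held once as its reverse complement.
Kcnj8, chr4:177246549-177246798, GRCr8, minus strand: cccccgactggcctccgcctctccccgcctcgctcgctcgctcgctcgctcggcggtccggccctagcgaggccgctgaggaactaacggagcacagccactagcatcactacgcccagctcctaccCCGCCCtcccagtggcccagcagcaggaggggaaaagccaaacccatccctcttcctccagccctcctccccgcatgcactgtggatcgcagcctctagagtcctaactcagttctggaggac
Abcc9, chr4:177386349-177386598, GRCr8, minus strand: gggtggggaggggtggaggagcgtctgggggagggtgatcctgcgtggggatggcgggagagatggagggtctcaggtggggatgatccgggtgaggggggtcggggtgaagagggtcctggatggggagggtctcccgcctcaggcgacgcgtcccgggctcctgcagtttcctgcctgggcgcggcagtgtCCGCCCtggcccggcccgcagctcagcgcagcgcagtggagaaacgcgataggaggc

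Both stretches were rich in GC, with 66.8% and 18 CpG dinucleotides before Kcnj8 and 71.2% and 19 CpG dinucleotides before Abcc9, against a median of 51.2% over 33469 rat promoters. The GC box was in 30.5% of those promoters. Searched on both strands and with no other overlap counted, neither stretch held CCAAT (in 34.0% of promoters), TATAAA (12.9%), the hypoxia response core ACGTG (16.6%), the antioxidant response core TGACNNNGC (10.1%) or the cyclic AMP response core TGACG (18.2%). The E-box CANNTG (65.5% of promoters) was present once before Abcc9 and was not found before Kcnj8. A match to these letters is a description of the sequence only.

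Libraries held 5848458 to 9926088 estimated counts in the genotype table and 9215039 to 14175594 in the treatment table, so 1 read was worth between 0.0705 and 0.171 RPM, the authors' unit of reads scaled to library size. App, the rat row that also collects reads of the human transgene, checked the genotype labels, with 2187 ± 122 RPM in TGNT (SD, n = 5) against 1101 ± 47.5 in WTNT (n = 5). Hippocampal marker genes summed to between 1024 and 2007 RPM in the 20 rats, with 8 of 9 listed markers in the tables, 6 of them averaging 10 counts or more. A pair of TGTR libraries stood apart. Replicate 5 held 2807 RPM of choroid plexus markers against 3.32 to 134 RPM in the other TGTR rats, and replicate 4 held 1744 RPM of blood genes, the highest sum of the 10 rats.

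KATP subunit mRNA differed little between TGNT and WTNT rats, and none of the 4 genes passed the threshold. The threshold was an adjusted p under 0.05 together with a 1.5-fold difference in edgeR's quasi-likelihood test, which called 2 of 17168 genes in this comparison (0.0116%). The lowest of the 4 fold changes was that of Kcnj11, at -0.30 on the log2 scale in TGNT relative to WTNT. Abcc8, Abcc9 and Kcnj8 had 95% intervals that included no change. At an unadjusted p under 0.05, edgeR's test gave 1 of the 4 members, Kcnj11, beside 554 of all genes (3.23%).

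Kcnj11, the Kir6.2 pore, measured 25.7, 22.6, 21.2, 27.3 and 23.4 RPM in WTNT rats 1 to 5 and 18.4, 24.4, 17.0, 21.4 and 16.1 RPM in TGNT rats 1 to 5. TGNT rats 1, 3 and 5 lay below every WTNT rat, while TGNT rats 2 and 4 lay within the wild-type range, so the groups overlapped. The means were 24.04 ± 2.45 RPM in WTNT and 19.4 ± 3.43 RPM in TGNT (SD, n = 5 each). The log2 fold change was -0.30 ± 0.120 (SE; 95% interval -0.56 to -0.04), with an unadjusted p of 0.0250 and an adjusted p of 1 in edgeR's quasi-likelihood test, where it ranked 247 among all genes. The exact two-sided permutation test of the RPM gave p = 0.0556, where 0.00794 is the smallest that 5 against 5 rats allow.

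Abcc8, the SUR1 partner of Kir6.2, measured 33.1, 28.0, 23.2, 35.5 and 21.3 RPM in WTNT rats 1 to 5 and 27.2, 25.6, 23.7, 27.4 and 23.7 RPM in TGNT rats 1 to 5. Every TGNT rat lay inside the wild-type range, and WTNT was the more variable group, with a coefficient of variation of 21.7% against 7.06%. Its log2 fold change was -0.14 ± 0.126 (SE; 95% interval -0.40 to 0.13), with an adjusted p of 1 in edgeR's test and an exact permutation p of 0.365.

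Kcnj8, the Kir6.1 pore, was scarce: WTNT libraries held 13 to 23 reads and TGNT libraries 16 to 21. Its values were 2.15, 1.53, 2.92, 2.22 and 2.39 RPM in WTNT rats 1 to 5 and 1.998, 3.17, 2.15, 2.40 and 2.24 RPM in TGNT rats 1 to 5, and the groups overlapped. Kcnj8 had a log2 fold change of 0.10 ± 0.235 (SE; 95% interval -0.40 to 0.60) with an adjusted p of 1 in edgeR's test and an exact permutation p of 0.619.

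Abcc9, the SUR2 receptor, measured 19.7, 23.6, 25.5, 19.97 and 18.2 RPM in WTNT rats 1 to 5 and 20.7, 22.6, 20.2, 20.7 and 20.6 RPM in TGNT rats 1 to 5. All TGNT rats lay inside the wild-type range. Its fold change on the log2 scale was -0.03 ± 0.101 (SE; 95% interval -0.25 to 0.18), with an adjusted p of 1 in edgeR's test and an exact permutation p of 0.778. Its estimated counts were not whole numbers in any of the 20 rats, so its values are uncertain to the extent that reads were divided between genes, whereas the counts of the other members were whole in every rat.

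**Figure D1:**
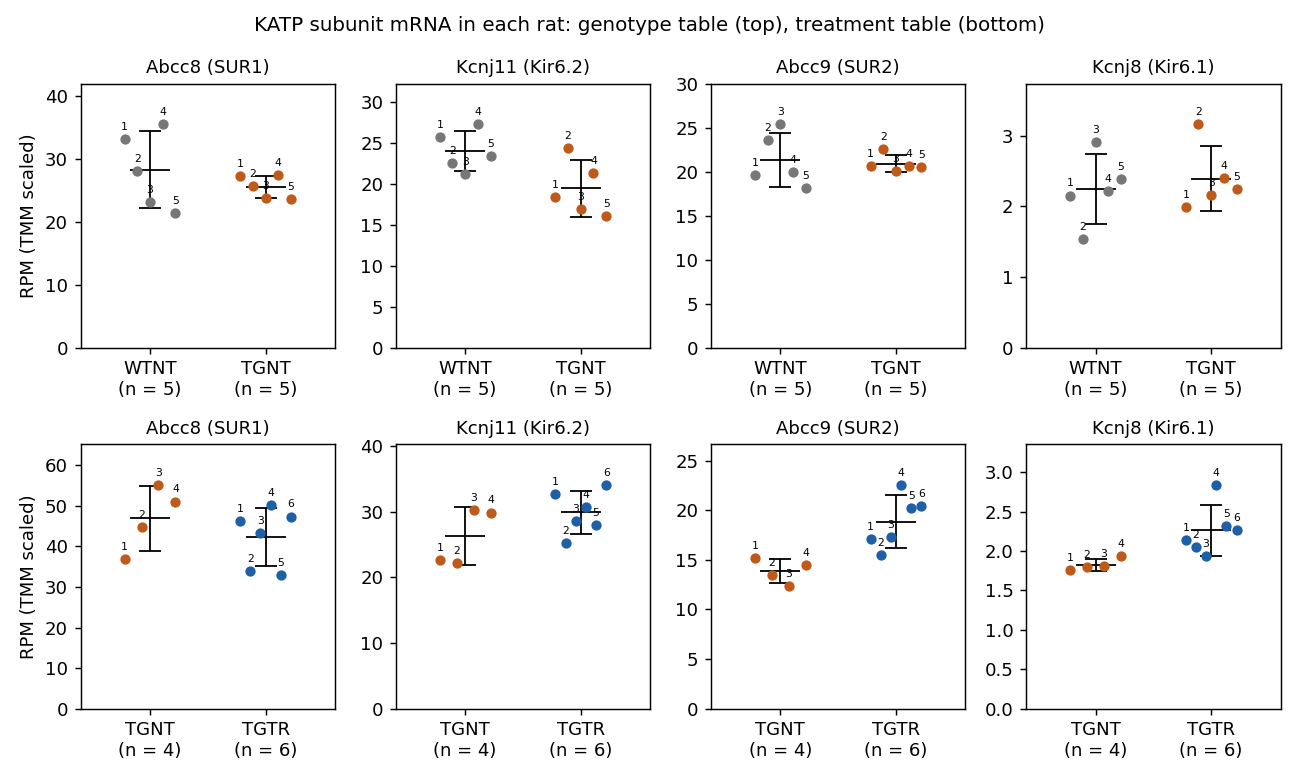
RPM (TMM scaled) of the 4 KATP subunit genes in each rat, with numbered points for replicates, and bars for the group mean and SD. The top row is the genotype table (5 WTNT, 5 TGNT), where the groups overlap for every gene, and the bottom row is the treatment table (4 TGNT, 6 TGTR), where all TGTR rats lie above all TGNT rats for Abcc9 and, by less than the value of 1 read, for Kcnj8.

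In the treatment comparison every TGTR rat lay above every TGNT rat for Abcc9 and Kcnj8. This held for 97 of the 12029 genes that averaged 10 counts or more (0.806%). For Kcnj8 the groups were apart by less than the value of 1 read, and its 95% interval included no change. By the fitted fold change Abcc9 was at 1.36-fold and Kcnj8 at 1.24-fold of the TGNT level. Kcnj11 was at 1.14-fold and Abcc8 at 0.902-fold, with overlap between groups. None of the 4 passed the threshold, and edgeR's quasi-likelihood test called 0 of 17168 genes here (0%), with 843 at an unadjusted p under 0.05 (4.91%), Abcc9 being the 1 member among them. DESeq2 called 3 genes and edgeR's exact test 4, none of them a member.

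Abcc9 measured 15.2, 13.5, 12.3 and 14.4 RPM in TGNT rats 1 to 4. In the 6 TGTR rats it ranged from 15.5 RPM (replicate 2) to 22.6 RPM (replicate 4), with a median of 18.7 RPM. Each TGTR rat was above each TGNT rat, the nearest being 15.5 and 15.2 RPM. The means were 18.9 ± 2.63 RPM in TGTR (SD, n = 6) and 13.8 ± 1.23 RPM in TGNT (n = 4). The log2 fold change was 0.45 ± 0.111 (SE; 95% interval 0.21 to 0.69), with an unadjusted p of 0.00144 that ranked 26 among all genes and an adjusted p of 0.858 in edgeR's quasi-likelihood test. The adjusted p lay between 0.188 and 1 over the other settings. The exact two-sided permutation test of RPM gave p = 0.00952, the smallest that 6 against 4 rats allow.

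Kcnj8 measured 1.75, 1.80, 1.80 and 1.93 RPM in TGNT rats 1 to 4, from 20 to 24 reads. In TGTR rats it ranged from 1.94 RPM (replicate 3) to 2.84 RPM (replicate 4), with a median of 2.21 RPM, from 23 to 36 reads. Each TGTR rat was above each TGNT rat, but the gap between 1.94 and 1.93 RPM was smaller than the 0.0705 to 0.109 RPM that 1 read was worth. In the fit, Kcnj8 had a log2 fold change of 0.31 ± 0.174 (SE; 95% interval -0.07 to 0.69), with an unadjusted p of 0.1003 and an adjusted p of 0.990 in edgeR's test, beside an exact permutation p of 0.00952. Of the 12029 genes that averaged 10 counts or more, 97 (0.806%) had every TGTR rat above every TGNT rat, and Abcc9 and Kcnj8 were 2 of these.

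Kcnj11 measured 22.7, 22.3, 30.3 and 29.9 RPM in TGNT rats 1 to 4 and from 25.3 to 34.2 RPM in TGTR rats (median 29.6). TGNT rats 3 and 4 lay inside the TGTR range and rats 1 and 2 below it. Kcnj11 had a log2 fold change of 0.19 ± 0.109 (SE; 95% interval -0.05 to 0.42), with an adjusted p of 0.990 in edgeR's test and an exact permutation p of 0.162. The interval thus ran from slightly lower to higher expression in TGTR rats.

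Abcc8 measured 36.8, 44.9, 55.2 and 51.1 RPM in TGNT rats 1 to 4 and from 32.9 to 50.1 RPM in TGTR rats (median 44.7). TGNT rats 3 and 4 lay above every TGTR rat and rats 1 and 2 inside the TGTR range. The fit gave a log2 fold change of -0.15 ± 0.133 (SE; 95% interval -0.44 to 0.14), with an adjusted p of 1 in edgeR's test and an exact permutation p of 0.343.

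**Figure D2:**
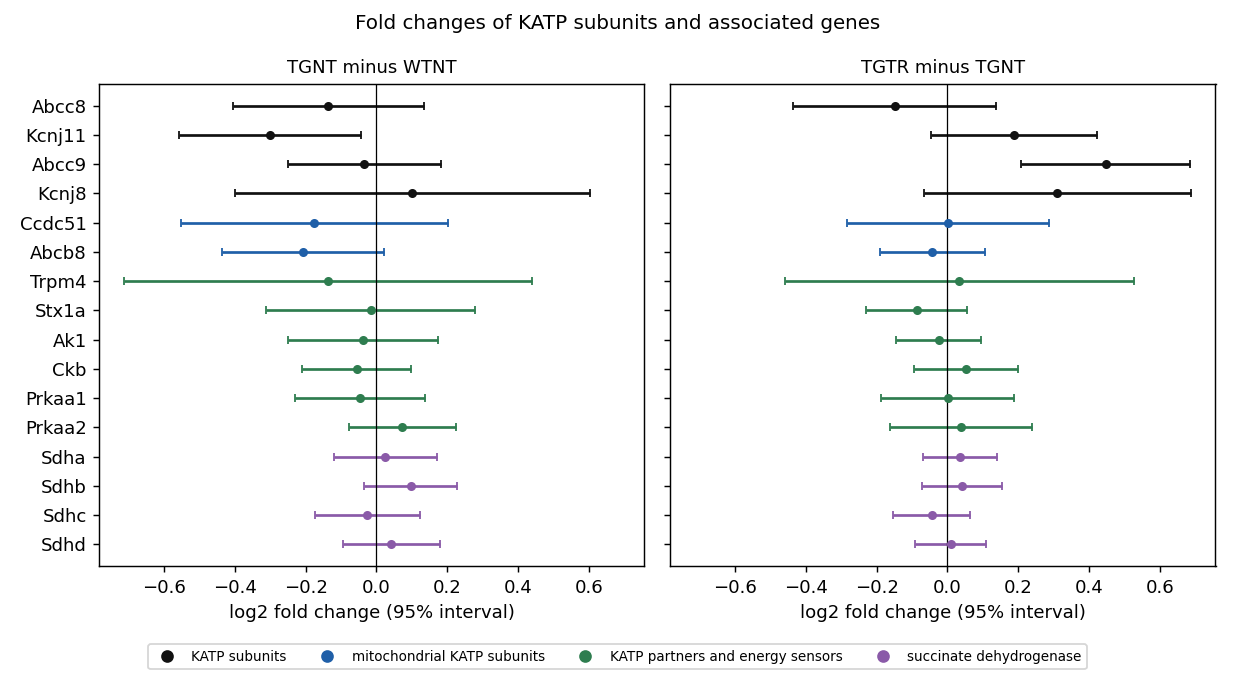
Log2 fold changes with 95% intervals (x axis) of the KATP subunits and associated genes that averaged 10 counts or more, from edgeR's quasi-likelihood fit, for TGNT minus WTNT (left) and TGTR minus TGNT (right). The intervals that leave out 0 are those of Kcnj11 on the left (-0.56 to -0.04) and Abcc9 on the right (0.21 to 0.69).

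Ratios of counts within a library do not depend on the normalization. The log2 ratio of Abcc8 to Kcnj11 counts, the SUR1 and Kir6.2 pair, was 0.84 ± 0.135 in TGNT rats of the treatment table (SD, n = 4; range 0.70 to 1.01) and 0.49 ± 0.162 in TGTR rats (n = 6; 0.23 to 0.71). The ranges met only at their edges, at 0.70 and 0.71. The log2 ratio of Abcc9 to Kcnj8, the SUR2 and Kir6.1 pair, was 2.92 ± 0.141 in TGNT and 3.06 ± 0.102 in TGTR, with overlapping ranges. Between the receptors, the log2 ratio of Abcc8 to Abcc9 was 1.75 ± 0.364 in TGNT and 1.16 ± 0.247 in TGTR, and the ranges of 1.28 to 2.167 and 0.71 to 1.43 overlapped. In the genotype table the log2 ratio of Abcc8 to Kcnj11 was 0.21 ± 0.216 in WTNT and 0.41 ± 0.207 in TGNT (n = 5 each), with overlapping ranges. None of these ratios was tested, and as counts are not per length they say nothing of the stoichiometry of the channel.

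Untreated TGNT rats of the same age are in both tables, which were normalized separately, so their levels are set side by side with no test. Abcc8 was at 23.7 to 27.4 RPM in the 5 TGNT rats of the genotype table and at 36.8 to 55.2 RPM in the 4 of the treatment table. Abcc9 lay the other way, at 20.2 to 22.6 RPM and 12.3 to 15.2 RPM. In these TGNT groups Abcc8 averaged 25.5 and 47.0 RPM, and Abcc9 20.9 and 13.8 RPM. For both genes the TGNT means lay farther apart between tables than the group means did within either table. Table, depth and rats cannot be told apart here.

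Partner subunits were also compared rat by rat, after the group mean of log2(RPM + 1) was removed, over the 10 rats of each table. None of the 12 values had an adjusted p under 0.05. For Abcc8 and Kcnj11 in the treatment table Pearson's r was 0.808 (permutation p = 0.0126, adjusted over 12 values 0.131; Spearman's rho 0.733, permutation p = 0.0210, adjusted 0.252), and r was 0.834 without the 2 rats farthest from the median of Abcc8. In the genotype table r was 0.546 (permutation p = 0.0386, adjusted 0.155; rho 0.588, permutation p = 0.0668, adjusted 0.321), and 0.581 without the 2 farthest rats. Abcc9 and Kcnj8 gave r = 0.763 in the treatment table (permutation p = 0.0219, adjusted 0.131; rho 0.624, permutation p = 0.0803, adjusted 0.321), which became 0.565 without the 2 rats farthest from the median of Abcc9. In the genotype table their r was 0.206 (permutation p = 0.680, adjusted 0.794; rho 0.01, permutation p = 1, adjusted 1), and -0.109 without the 2 farthest rats. The difference between tables was not tested, and the points within a table share their normalization.

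**Figure D3:**
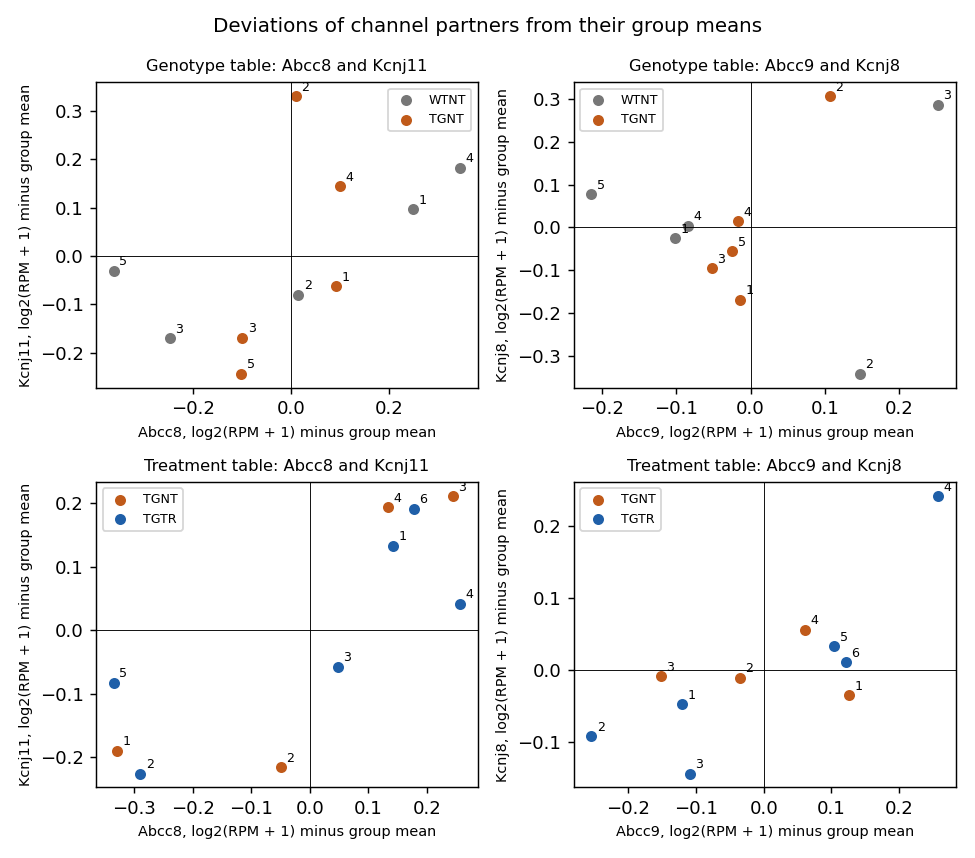
Deviation of each rat from its group mean in log2(RPM + 1) for the partners Abcc8 and Kcnj11 (left) and Abcc9 and Kcnj8 (right), in the genotype table (top) and the treatment table (bottom), with replicate numbers beside the points. Pearson's r was 0.546 (genotype) and 0.808 (treatment) for Abcc8 and Kcnj11, and 0.206 and 0.763 for Abcc9 and Kcnj8, none with an adjusted p under 0.05.

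As a description of likeness, every gene averaging 10 counts or more in both tables (11338 beside the member) was ranked by the lower of its Pearson r values with the member in the 2 tables, 10 rats each, with group means removed. Abcc8 was most like Scn8a, a neuronal voltage-gated sodium channel (lower r 0.927), followed by Actr3, Clcn4, Coro7 and Capzb (down to 0.914). Kcnj11 was most like Apeh, an acylpeptide hydrolase (0.791), followed by Vopp1, Mfsd4, Prrt2 and RGD1310587 (down to 0.730). Abcc9 was most like Rcan2, a calcineurin regulator (0.754), followed by Asap1, Pde4d, Sspn and Ano4 (down to 0.726). Kcnj8, with few reads, reached 0.700 with Ppp2r1b, a scaffold subunit of protein phosphatase 2A, followed by Sestd1, C1H6orf35, Ddb2 and Isy1 (down to 0.609). The channel partners ranked lower: Kcnj11 was at place 885 for Abcc8, and Abcc8 at place 126 for Kcnj11. Several markers of hippocampal regions ranked nearer to Abcc8 than Kcnj11 did. They were Cabp7 at place 84 (lower r 0.841), Zbtb20 at 139 (0.814), Prox1 at 243 (0.770), Neurod6 at 444 (0.691) and Wfs1 at 823 (0.563). Fibcd1, of the same list, was far lower at place 3672 (0.008). The other Kir channel genes were spread widely, from Kcnj6 at 45 (0.861) to Kcnj16 at 11048 (-0.866). These genes were picked out after their values had been seen, and their part in the variation of Abcc8 between rats was not tested. Kcnj8 was at place 1510 for Abcc9, and Abcc9 at place 748 for Kcnj8. The values come from a few rats that share library depth and normalization.

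Since Kir6.1 with SUR2B is the form of vascular smooth muscle and pericytes, markers of the cells of the vessel wall are given beside Abcc9 and Kcnj8. The Abcc9 values count the gene as a whole, so SUR2B is not told apart from other forms of SUR2. In bulk tissue, more cells of a type and more mRNA per cell cannot be told apart. In the treatment comparison none of the vascular markers passed the threshold, but they leaned the same way. The pericyte list had 10 of 10 measured members higher in TGTR (median log2 fold change 0.22), the endothelial list 9 of 9 (0.19), and the smooth muscle list 5 of 5 (0.76), whereas 50.1% of all genes with at least 10 counts were higher (median 0.00). Summed pericyte markers ranged from 145 to 227 RPM in TGTR and from 132 to 157 RPM in TGNT. Summed endothelial markers ranged from 260 to 396 RPM in TGTR and from 256 to 277 RPM in TGNT. Smooth muscle markers ranged from 59.1 to 253 RPM in TGTR and from 53.5 to 68.5 RPM in TGNT. TGTR replicate 5, the library with the most choroid plexus markers, had the highest sum in all 3 lists. The markers that define these cells (Pdgfrb, Pecam1, Acta2) were detected, and the part of the vascular cells in the Abcc9 and Kcnj8 values was not tested.

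Without TGTR replicate 5 the medians were 0.08 over the pericyte list (8 of 10 members higher), 0.12 over the endothelial list (9 of 9) and 0.18 over the smooth muscle list (5 of 5). The log2 fold change of Abcc9 was then 0.43, with an unadjusted p of 0.00234 and an adjusted p of 0.906 in edgeR's test, and that of Kcnj8 was 0.30. Without TGTR replicates 5 and 6, the rats with the most choroid plexus markers, Abcc9 was at 0.39 and Kcnj8 at 0.30. Without TGTR replicate 4, which had the most blood genes and the highest level of both members, Abcc9 was at 0.39 and Kcnj8 at 0.23. Taken over the summed pericyte markers of the same library, the mean log2 ratio of Abcc9 was -3.15 ± 0.213 in TGTR (SD, n = 6) and -3.39 ± 0.117 in TGNT (n = 4), a difference of 0.24 with overlapping ranges. Over the endothelial markers the difference was also 0.24, and over the smooth muscle markers it was -0.03. Without TGTR replicate 5, whose smooth muscle markers summed to 253 RPM, the differences were 0.30 over pericyte, 0.29 over endothelial and 0.27 over smooth muscle markers (TGTR n = 5). For Kcnj8 the differences were 0.10 over pericyte, 0.10 over endothelial and -0.16 over smooth muscle markers. They were 0.18, 0.17 and 0.14 without TGTR replicate 5. These ratios were chosen after the values had been seen.

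**Figure D4:**
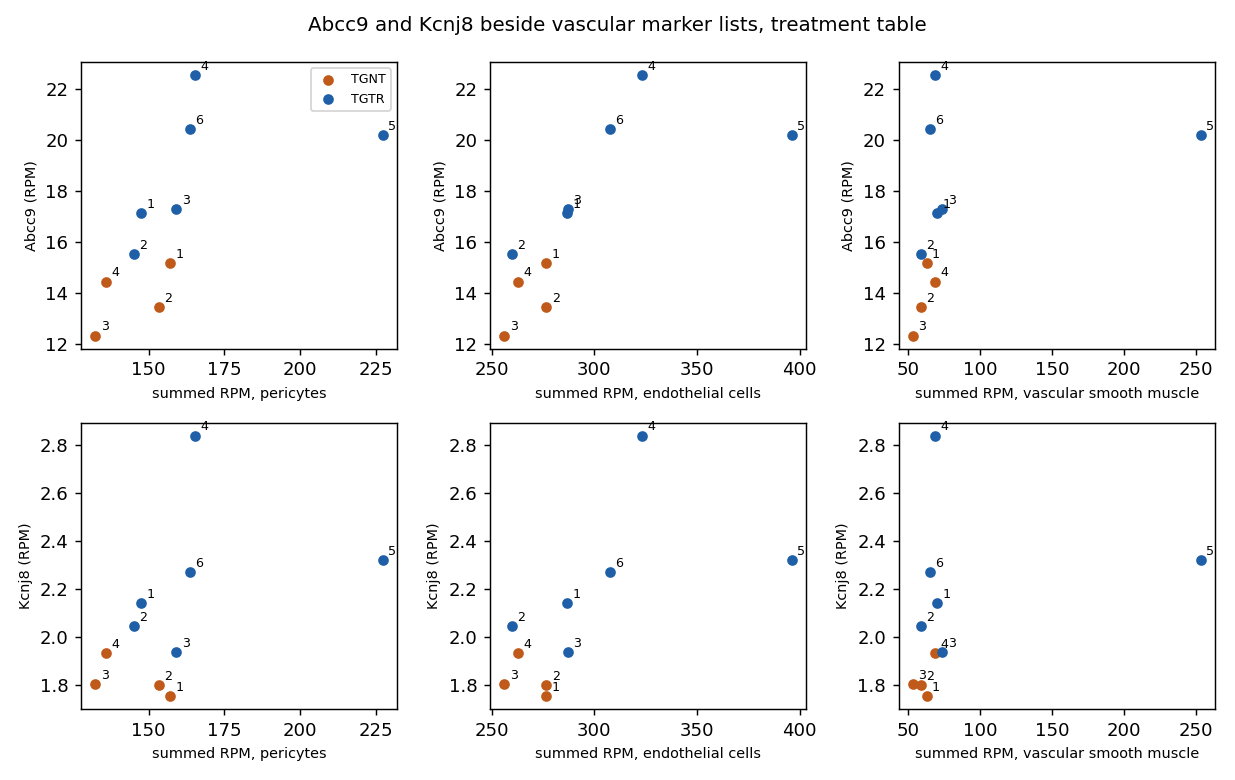
Abcc9 (top) and Kcnj8 (bottom) in RPM (y axis) against the summed RPM of pericyte, endothelial and vascular smooth muscle markers (x axis) in each rat of the treatment table, with replicate numbers. TGTR replicate 5 lies far to the right, with 227, 396 and 253 RPM, while TGTR replicate 4 has the highest Abcc9 (22.6 RPM) and Kcnj8 (2.84 RPM).

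Lists of other cells also leaned one way in the treatment comparison, with no member past the threshold, and for several lists the lean depended on TGTR replicate 5. Oligodendrocyte markers had 6 of 6 members higher in TGTR (median log2 fold change 0.22; 0.28 without replicate 5), and inhibitory neuron markers 6 of 7 (0.16, with or without it). Thalamic and habenular markers had 5 of 5 higher (0.25), and 4 of 5 without replicate 5 (0.12). Perivascular and meningeal fibroblast markers had 4 of 5 higher (0.71), and 0 of 5 without it (-0.27).

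Choroid plexus markers had 7 of 7 members higher (median 2.94), and 5 of 7 without replicate 5 (0.51). The highest sum was then the 134 RPM of TGTR replicate 6. TGTR replicates 1 to 4, at 3.32 to 6.63 RPM, all lay below every TGNT rat (7.02 to 17.8 RPM). Neuronal markers had 1 of 8 higher (-0.04; 2 of 8 and -0.01 without replicate 5). Astrocyte markers had 0 of 8 higher (-0.03) and microglial markers 2 of 8 (-0.03), but each had 5 of 8 without that library (0.00 and 0.01). Hippocampal markers had 1 of 6 higher (-0.11), and 2 of 6 without it (-0.06).

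Blood genes had 5 of 5 members higher in TGTR (median 0.96; 1.05 without replicate 5), with sums of 239 to 1744 RPM in TGTR and 207 to 322 RPM in TGNT. Kcnj8 varied with them over the 10 rats of the treatment table, with r from 0.832 (Alas2) to 0.883 (Hba2) after group means were removed. Without TGTR replicate 4, the rat with 1744 RPM of blood genes, these r values were 0.282 to 0.429 (n = 9). The part of blood in the Kcnj8 value was not tested.

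In the genotype comparison several lists also leaned one way. Oligodendrocyte markers had 0 of 6 members higher in TGNT (median -0.23) and hippocampal markers 0 of 6 (-0.15), against 52.4% of all genes (median 0.01). Inhibitory neuron markers had 6 of 7 higher (0.12). Microglial markers had 8 of 8 higher (0.09), fibroblast markers 5 of 5 (0.24), pericyte markers 6 of 8 (0.12) and neuronal markers 3 of 8 (-0.02). Summed hippocampal markers ranged from 1235 to 1584 RPM in TGNT and from 1218 to 2007 RPM in WTNT. WTNT rats 3 and 5 were at 1218 and 1270 RPM, and WTNT rats 1, 2 and 4 at 1936 to 2007 RPM. The part of the cells of these lists in the values of Kcnj11 was not tested.

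Genes that work with the channel, or that form the mitochondrial KATP channel, were likewise not past the threshold, with 0 of 12 measured genes called in either direction in each comparison. Ccdc51, the pore of the mitochondrial KATP channel, lay at -0.17 on the log2 scale in TGNT relative to WTNT and at 0.00 in TGTR relative to TGNT. Abcb8, its ATP-binding subunit, had -0.21 (95% interval -0.44 to 0.02) and -0.04 (-0.19 to 0.11). The 4 subunits of succinate dehydrogenase, a mitochondrial complex that DZ can inhibit, lay between -0.03 and 0.10 in the genotype comparison and between -0.04 and 0.04 in the treatment comparison.

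Among partners and energy sensors, Trpm4, a cation channel that can assemble with SUR1, had log2 fold changes of -0.14 (genotype) and 0.03 (treatment). Stx1a, a syntaxin that binds SUR1, had -0.02 and -0.09. Ak1 and Ckb, the adenylate and creatine kinases that buffer ATP, had -0.04 and -0.05 between genotypes and -0.02 and 0.05 with treatment. The catalytic subunits of the AMP-activated kinase, Prkaa1 and Prkaa2, had -0.05 and 0.07 between genotypes and 0.00 and 0.04 with treatment. Rapgef4 and Ank2 were not analysed here.

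The other members of both gene families also gave no call. Among the other Abcc transporters, the highest and lowest log2 fold changes were those of Abcc3 (0.24) and Abcc1 (-0.08) between genotypes, and those of Abcc2 (0.21) and Abcc3 (-0.28) with treatment. Among the other Kir channels they were those of Kcnj16 (0.18) and Kcnj6 (-0.25) between genotypes, and those of Kcnj13 (3.14) and Kcnj16 (-0.39) with treatment. Kcnj13, a Kir channel of the choroid plexus, reached 40.0 RPM in the TGTR group against at most 0.977 RPM in TGNT, and the groups overlapped. Choroid plexus markers summed to 2807 RPM in TGTR replicate 5, to 134 RPM in replicate 6 and to between 3.32 and 6.63 RPM in TGTR replicates 1 to 4. The part of that tissue in the Kcnj13 value was not tested.

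The genes on either side of the Kcnj8 and Abcc9 pair had other values than the pair itself. Ldhb, the heart-type lactate dehydrogenase subunit next to Kcnj8, had a log2 fold change of 0.00 (95% interval -0.11 to 0.12) between TGTR and TGNT. Cmas, a sialic acid enzyme next to Abcc9, had -0.08 (-0.20 to 0.03). Between TGNT and WTNT they had 0.01 and 0.02. Next to Abcc8, Ush1c had a mean of at most 0.800 counts, too few to compare, and Ncr3lg1, next to Kcnj11, was not analysed here.

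**Figure D5:**
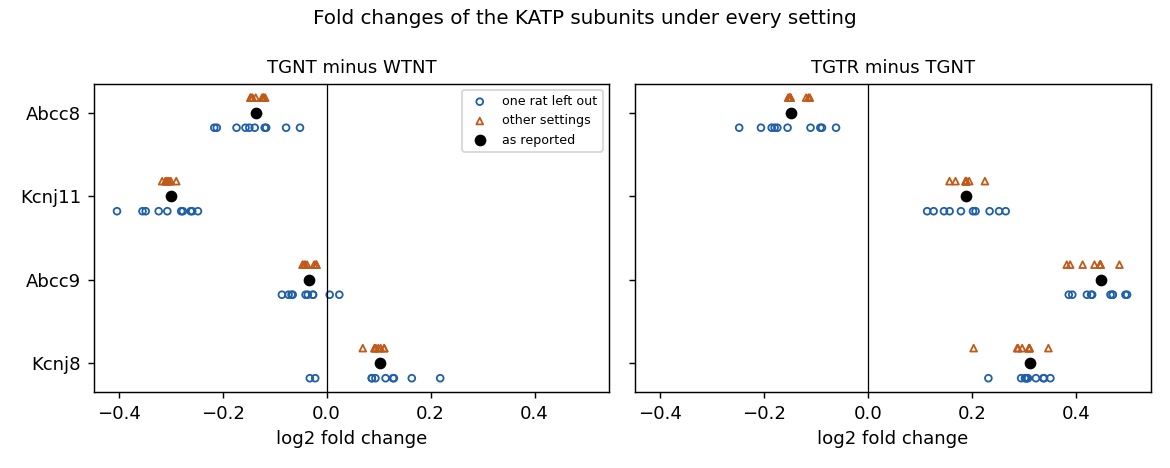
Log2 fold changes of the 4 KATP subunit genes (x axis) as reported, with 1 rat left out, and under the other settings (normalization, filter, tool, pseudocount, replicate block), for TGNT minus WTNT (left) and TGTR minus TGNT (right). Abcc9 in the right panel lies between 0.38 and 0.50 under every setting, while Abcc9 and Kcnj8 in the left panel lie on both sides of 0 when single rats are left out.

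The values of the members changed direction only for Abcc9 and Kcnj8 in the genotype comparison, where both were near 0. Without TGNT replicate 2, the transgenic rat with the highest Kcnj11, the log2 fold change of Kcnj11 between genotypes was -0.40. Its unadjusted p of 0.00306 in edgeR's test was the lowest of the fits with 1 rat left out, and the adjusted p was 1. The highest unadjusted p in the same test was 0.0629, without TGNT replicate 5, where the log2 fold change was -0.25. The p-values weigh the group differences against the variation between these rats.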

How the data were processed

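Hippocampal mRNA was measured by strand-specific poly(A) RNAseq in 20 female rats. For each comparison the authors deposited estimated counts per gene symbol, not normalized, and a signal that the authors computed from them as RPM with TMM factors, per table of 10 rats. The submitters' processing notes name bcl2fastq 2.17, Bowtie2 2.1.0, RSEM 1.2.15, edgeR and the rn6 build. The annotation is not given in the sources used here. Such counting can divide reads between genes, and 0 sample columns went unused.

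Estimated counts were rounded and fitted per comparison with edgeR 4.0.16 (R 4.3.3; TMM, quasi-likelihood test, two-sided, Benjamini-Hochberg over 17168 genes; called at an adjusted p under 0.05 and a fold of at least 1.5). RPM were compared with exact two-sided permutation tests over rats (scipy 1.17.1). Correlations used log2(RPM + 1) minus the group mean and 100000 permutations within groups. Alternatives were RLE factors, library size only, filterByExpr, edgeR's exact test, DESeq2 1.42.0, limma-trend 3.58.1 on log2 RPM with 1 or 0.1 added, a replicate block, and each rat left out; fits without TGTR replicate 5 for the lists and marker ratios, without 5 and 6, and without 4 for blood genes were added after the data had been seen. The fits were tested on simulated data.

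Named were the 4 members, all genes of the pathway lists (1 of which is not reported here), the highest and lowest of each family list with a mean of at least 10 counts, the 5 genes most like each member, and neighbours. App was added as the check of the labels. The members and lists were chosen with earlier results of these data known. Depth ranged from 5848458 to 14175594 estimated counts per library. Promoters and gene order are from RefSeq, GRCr8: all 4 symbols matched the gene table and 2 the promoter table.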

Additional observations from a re-analysis of the deposited data

Results flagged for a closer look

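A pair of values lay far from the rest of their group by Dixon's test, among 32 groups of 4 to 6 rats tested, where chance flags about 1 in 20 (1.6 here). Abcc9 was at 22.6 RPM in TGNT replicate 2 of the genotype table, the next rat being at 20.7 RPM. The log2 ratio of Abcc9 to Kcnj8 counts was 3.94 in WTNT replicate 2, the next rat being at 3.20; that library held 15 reads of Kcnj8.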

How the results depend on the processing

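Of 148 refits of the 8 member fold changes, 144 kept the direction and the side of the threshold, and 4 changed direction, all with 1 rat left out of the genotype comparison. Abcc9 was then at 0.0059 without WTNT replicate 2 and 0.024 without WTNT replicate 3, and Kcnj8 at -0.032 without WTNT replicate 2 and -0.022 without TGNT replicate 2. When single rats were omitted one by one, log2 fold changes between genotypes ranged from -0.22 to -0.05 for Abcc8, -0.086 to 0.024 for Abcc9, -0.032 to 0.22 for Kcnj8 and -0.40 to -0.25 for Kcnj11. With treatment they ranged from -0.25 to -0.06 for Abcc8, 0.39 to 0.50 for Abcc9, 0.23 to 0.35 for Kcnj8 and 0.11 to 0.26 for Kcnj11. Without the 2 farthest rats, r changed sign for Abcc9 with Kcnj8 (-0.109), Abcc9 with Kcnj11 (0.121) and Kcnj8 with Kcnj11 (-0.389) in the genotype table and for Abcc9 with Kcnj11 (-0.218) in the treatment table. The number of genes called between genotypes was 4 with edgeR's exact test against 2; with treatment it was 3 with DESeq2, 4 with edgeR's exact test and 1 with the replicate block, against 0. The causes were not tested.

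Same-numbered rats showed no steady likeness. They correlated at 0.340, -0.107, 0.158, 0.126 and -0.210 in the genotype table and at -0.576, -0.003, -0.059 and 0.142 in the treatment table. In the genotype table TGNT rat 1 was most like WTNT rat 1, while every other rat compared was most like one of another number. So few rats cannot settle whether the numbers pair them. With the replicate block, Abcc9 was at 0.38 with treatment (adjusted p of 1 in edgeR's test) and Kcnj11 at -0.30 between genotypes, and no member's call changed. Counts of Kcnj8, at most 36 per library, limit what its fold changes can show.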

Other observations

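Of the 10 other Kir channel genes measured in the treatment comparison, Kcnj9 and Kcnj12 also had every TGTR rat above every TGNT rat. Over all genes that averaged 10 counts or more, 97 of 12029 (0.806%) did so. Neither gene passed the threshold, and both were picked out after their values had been seen. Kcnj9, a G protein-gated Kir subunit, was at 60.0 ± 0.971 RPM in TGTR (SD, n = 6) and 50.6 ± 1.42 RPM in TGNT (n = 4). Its log2 fold change was 0.25 ± 0.040 (SE), with an adjusted p of 0.248 in edgeR's quasi-likelihood test. The estimated counts of both genes were not all whole. Kcnj12, the strong inward rectifier Kir2.2, was at 11.1 ± 1.14 RPM in TGTR and 7.85 ± 1.32 RPM in TGNT. Its log2 fold change was 0.50 ± 0.125 (SE), with an adjusted p of 0.858 in the same test. Between genotypes their log2 fold changes were -0.02 and -0.01.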
